A study of Mus musculus with 16 samples.

Results

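The genes described here are 32 genes of cholesterol and fatty acid synthesis, chosen by symbol under a rule that uses no measured value, of 31053 genes in the deposited matrices. The sterol arm holds 21 of them and the fatty acid arm 11. They were measured by droplet single-cell RNA sequencing (10x Chromium 3′ protocol, version 2 chemistry) in tumour organoids, which are epithelial cultures grown in 3 dimensions. The tumours arose in mouse colon after azoxymethane, a carcinogen, and dextran sodium sulfate, which inflames the colon (AOM/DSS). The control cultures are labelled KMT9wt/wt and minus TAM, the knockout cultures KMT9ko/ko and plus TAM. Both were at passage 14. Both matrices carry the label Day 5, which does not say what the day is counted from. The 16 records (8 in each group) make up 2 libraries, because 2 samples stand in the design text and each group has 1 matrix. KMT9 is a methyltransferase of KMT9alpha, encoded by N6amt1, and TRMT112. TAM is not spelled out in the labels, and its own effect and that of the knockout cannot be told apart. How many mice stand behind the cultures, how the deletion was driven and at which stage TAM was given are not given in the sources used here. With 1 library in each group there was no test across replicates, so every difference describes these 2 libraries, and every interval covers counting error only.

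Cells make cholesterol and fatty acids from the same cytosolic acetyl-CoA. In the sterol arm, mevalonate pathway enzymes build isoprenoid units, squalene is made and closed into lanosterol, and a series of enzymes of the endoplasmic reticulum turns lanosterol into cholesterol. In the fatty acid arm, acetyl-CoA is carboxylated, fatty acid synthase makes palmitate, and elongases and desaturases lengthen it or add double bonds. Transcription factors of the SREBP family switch on both arms when sterols are scarce. SREBP-2, encoded by Srebf2, acts mainly on sterol genes, and SREBP-1c, a product of Srebf1, mainly on fatty acid genes. The colon epithelium renews itself continuously, and dividing cells need both kinds of lipid for new membranes.

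SREBPs bind sterol regulatory elements together with cofactors such as NF-Y, which binds CCAAT boxes. RefSeq promoters (build GRCm38.p6) were found for 26 of the 32 genes, and the 250 bases upstream of each start site were searched on both strands. None was found for Fdps, Fdft1, Sqle, Stard4, Scd1 or Scd2. The counts therefore leave out Stard4, Scd1 and Scd2, the genes that differ by 1.5-fold or more between the libraries below. A CCAAT box (CCAAT, reverse complement ATTGG) stood in 22 of these 26 genes, in 16 of 17 sterol arm genes and in 6 of 9 fatty acid arm genes, against 37.5% of all 26994 genes in the table. It was absent from Acat2, Acly, Acaca and Elovl6. A GC box (GGGCGG, reverse complement CCGCCC) stood in 21 of 26, in 16 of 17 sterol arm and 5 of 9 fatty acid arm genes, against 35.3%. The shares of all genes count genes whether or not they were expressed in these cells, and shares among expressed genes were not computed. The letters TCACNCCAC, 1 form of the sterol regulatory element, stood in 1 of 26, Hmgcs1, against 1.23%, and the shorter CACNCCAC within it in 3 of 26 (Acat2, Hmgcs1 and Insig1) against 6.05%. An E-box (CACGTG) stood in 5 of 26, against 6.86%. These matches are descriptions of letters and not of bound sites. As chosen examples with CCAAT boxes, the 250 upstream bases of 2 sterol arm genes and of 2 fatty acid arm genes are printed. The 2 genes of each arm differ between the libraries in opposite directions. The printed bases run 5′ to 3′ on the strand of the gene, with CCAAT boxes in either orientation and the sterol regulatory element in capitals. They lie at chr13:119690101-119690350 (plus strand), chr8:122443423-122443672 (minus), chr11:120824548-120824797 (minus) and chr4:118427843-118428092 (plus, 1 of its 2 promoters in the table).
Hmgcs1: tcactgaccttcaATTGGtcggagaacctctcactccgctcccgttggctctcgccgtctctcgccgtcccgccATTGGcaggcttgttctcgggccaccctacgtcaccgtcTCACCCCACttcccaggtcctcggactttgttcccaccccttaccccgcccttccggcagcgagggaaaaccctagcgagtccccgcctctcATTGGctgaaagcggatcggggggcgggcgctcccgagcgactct
Mvd: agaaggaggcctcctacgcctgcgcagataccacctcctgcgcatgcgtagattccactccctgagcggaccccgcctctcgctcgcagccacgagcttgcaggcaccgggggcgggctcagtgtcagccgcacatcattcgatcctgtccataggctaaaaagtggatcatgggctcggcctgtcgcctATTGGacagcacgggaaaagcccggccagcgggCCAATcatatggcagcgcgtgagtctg
Fasn: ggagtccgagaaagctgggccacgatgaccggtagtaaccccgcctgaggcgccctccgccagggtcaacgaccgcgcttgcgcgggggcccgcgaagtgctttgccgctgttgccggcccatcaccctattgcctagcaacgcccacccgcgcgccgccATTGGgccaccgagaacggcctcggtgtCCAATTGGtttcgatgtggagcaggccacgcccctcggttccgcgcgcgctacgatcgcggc
Elovl1: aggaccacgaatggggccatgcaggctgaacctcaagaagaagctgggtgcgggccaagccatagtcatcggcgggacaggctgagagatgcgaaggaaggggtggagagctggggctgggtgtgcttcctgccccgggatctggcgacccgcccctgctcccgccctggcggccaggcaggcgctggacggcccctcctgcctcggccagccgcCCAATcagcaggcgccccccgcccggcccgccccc
Hmgcs1 has 3 CCAAT boxes and the sterol regulatory element TCACCCCAC from 137 to 129 bases before the start. Mvd has 2 CCAAT boxes, Elovl1 has 1, and Fasn has 3, of which 2 overlap as CCAATTGG. The printed Elovl1 promoter was picked by a rule that asked for a CCAAT box, and the other Elovl1 promoter has none.

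After filtering, 2629 control cells with 68605296 UMIs (unique molecular identifiers, 1 per captured molecule) and 1481 knockout cells with 37358097 UMIs were kept, at a median of 24603 and 24184 UMIs per cell. N6amt1, the targeted gene, stood at 34.1 CPM (UMIs of a gene per 1000000 UMIs of the kept cells) in control cells and 6.13 CPM in knockout cells. Of all barcodes, 498 occur in both matrices. They include 167 kept control cells (6.35%) and 324 kept knockout cells (21.9%), and in 318 of these 324 the control copy was the smaller one, so results are also given for cells whose barcode occurs in 1 matrix alone. The 7 epithelial markers summed to 12022 and 13622 CPM and all were measured. Marker sums of epithelial cell types also differed: 13 colonocyte markers stood at 317 and 668 CPM, 7 enteroendocrine markers at 7.58 and 35.8 (nearly all Cpe in the knockout library), 8 goblet markers at 26.1 and 14.5 and 8 stem cell markers at 437 and 332. Of the cell clusters described below only cluster 12, with 4 control and 28 knockout cells, was named colonocyte-like. Without it the arm medians given below were -0.06 and 0.44. Cluster 8, which has the colonocyte marker Lypd8 among its leading genes, was kept, so this does not take out all cells with colonocyte markers. The part of colonocyte and other cell types in the arm medians was not tested further. The 4 adipocyte markers summed to 1.47 and 2.06 CPM, with Plin1 and Lep at 0. The 6 fibroblast markers summed to 0.117 and 0.268 CPM with 4 of them at 0, the 6 immune markers to 10.4 and 14.5 CPM with Cd3e and Tyrobp at 0, and the 4 endothelial markers to 7.58 and 17.9 CPM, nearly all Cdh5, with Kdr and Cldn5 at 0.

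Of the 32 genes, 30 reached 10 CPM in at least 1 library and are called measured: all 21 of the sterol arm and 9 of the fatty acid arm. Acaca and Acss2 stayed below this minimum. Genes that differed by at least 1.5-fold are counted as higher or lower in the knockout library, which is a threshold of size and not a test. The sterol arm as a whole differed little between the libraries. Its median log2 ratio of knockout over control was -0.06, beside a median of -0.06 over all 7912 measured genes. None of its 21 genes was higher and 1 was lower, where 8.06% of all measured genes were higher and 10.7% lower. The fatty acid arm had a median of 0.43 over its 9 measured genes, with 2 higher and none lower. The difference between the arm medians was 0.48. Among cells whose barcode occurs in 1 matrix alone the medians were -0.12 and 0.39, beside -0.10 for all measured genes. There 0 sterol arm genes were higher and 1 lower, and 2 fatty acid arm genes higher and 1 lower, where 6.54% of measured genes were higher and 11.3% lower.

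**Figure D1:**
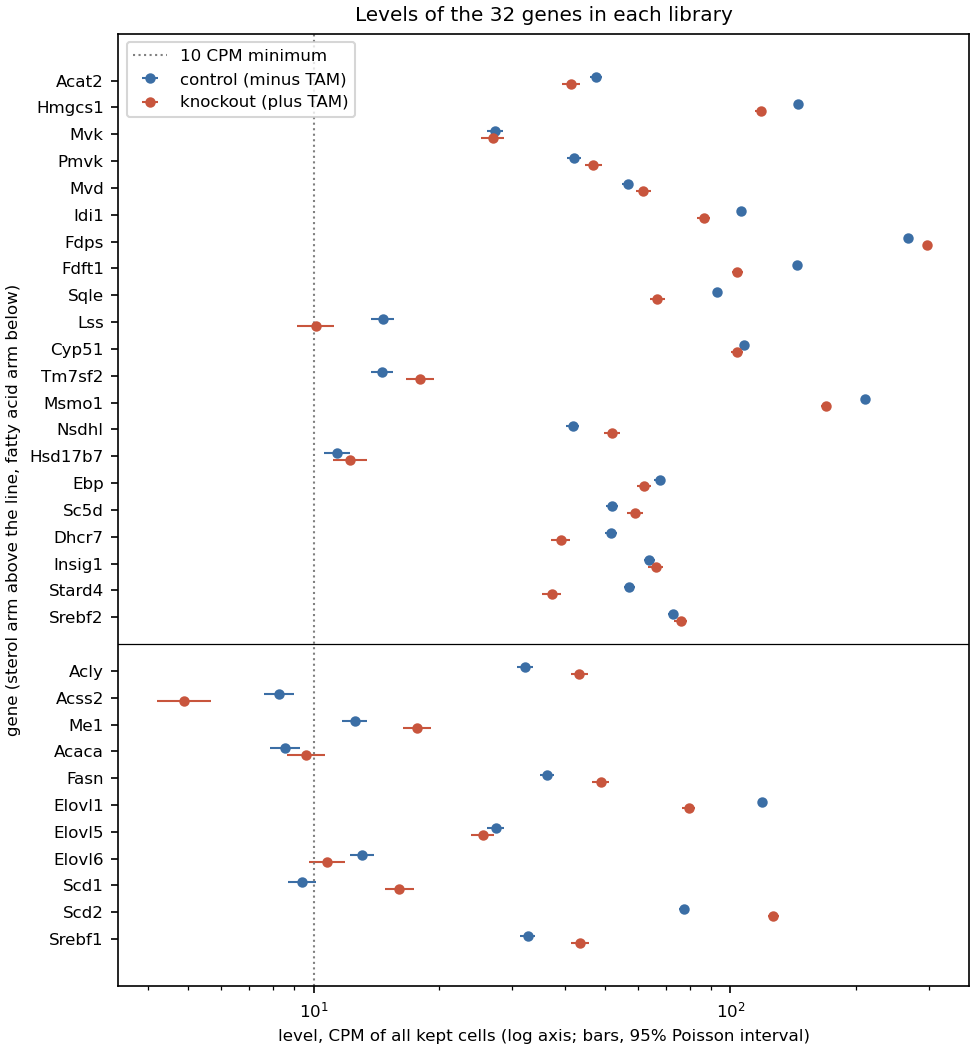
Level of each of the 32 genes in CPM (log axis) in the control (blue) and the knockout library (red), with 95% Poisson intervals; the horizontal line parts the sterol arm from the fatty acid arm and the dotted line marks 10 CPM. Of the sterol arm genes 9 lie higher and 12 lower in the knockout library, while Scd2, Scd1, Fasn, Acly, Me1 and Srebf1 lie to the right in the knockout library and Elovl1 to the left.

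The early sterol enzymes lay on both sides of 0. Acat2, which condenses acetyl-CoA units, stood at 47.6 CPM in the control and 41.5 in the knockout library. Hmgcs1, the cytosolic synthase that makes HMG-CoA, stood at 145 and 118 CPM, with a log2 ratio of -0.30 (interval -0.35 to -0.25). Idi1, the isomerase of the isoprenoid units, had the same ratio at 106 and 86.3 CPM. The kinases and the decarboxylase of mevalonate differed less: Mvk stood at 27.3 and 26.9 CPM, Pmvk at 42.2 and 46.9, and Mvd at 56.7 and 61.8. Fdps, which makes farnesyl diphosphate, stood at 267 and 296 CPM, with a log2 ratio of 0.15 (0.12 to 0.18). These 7 genes had a median log2 ratio of -0.02, with 3 above 0 and 4 below it.

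The 3 genes that lead from farnesyl diphosphate to lanosterol all lay below 0, short of the 1.5-fold threshold. Fdft1, squalene synthase, stood at 145 CPM in the control and 104 in the knockout library, a log2 ratio of -0.48 (-0.53 to -0.43). It overlaps Ctsb on the opposite strand, which stood at 427 and 249 CPM, and since the strand setting of the counting is not stated, reads of the pair cannot be fully told apart. Sqle, squalene epoxidase, stood at 92.9 and 66.8 CPM, also -0.48 (-0.54 to -0.41). Lss, lanosterol synthase, stood at 14.7 and 10.1 CPM, with a log2 ratio of -0.53 (-0.71 to -0.36). The median of this step, -0.48, was the lowest of the 4 steps of the sterol arm.

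Past lanosterol the genes split evenly, 4 above 0 and 4 below, with a median of 0.02. Nsdhl, a sterol dehydrogenase that removes C4 methyl groups, stood at 41.8 and 52.0 CPM, with a log2 ratio of 0.32 (0.23 to 0.40), and Tm7sf2, a sterol reductase, at 14.6 and 18.0 CPM, 0.30 (0.16 to 0.45). Msmo1, which oxidises the same methyl groups, lay on the other side at 211 and 169 CPM, -0.32 (-0.36 to -0.27). Dhcr7, which reduces 7-dehydrocholesterol to cholesterol, stood at 51.8 and 39.1 CPM, -0.41 (-0.49 to -0.32). The demethylase gene Cyp51 stood at 108 and 104 CPM, the isomerase gene Ebp at 67.6 and 62.1, the desaturase gene Sc5d at 51.9 and 59.1, and the ketoreductase gene Hsd17b7 at 11.4 and 12.3. Without shared barcodes the ratio of Nsdhl was 0.16 and that of Sc5d 0.06, and Hsd17b7 lay at -0.04, so the positive values of this step were smaller there.

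The regulators of the sterol arm stood close to 0 and its transport gene did not. Srebf2 stood at 73.0 and 76.0 CPM, with a log2 ratio of 0.06 (-0.01 to 0.13). Insig1, whose product holds SREBP precursors in the endoplasmic reticulum and whose gene is itself an SREBP target, stood at 63.8 and 66.1 CPM, 0.05 (-0.02 to 0.12), and at -0.08 without shared barcodes. Stard4, which encodes a soluble carrier of cholesterol, stood at 57.2 and 37.2 CPM, 1.54-fold lower, with a log2 ratio of -0.62 (-0.71 to -0.53). It was the 1 sterol arm gene past the threshold and lay just beyond it. Lss, at 1.45-fold lower, was the next.

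In the fatty acid arm Scd1 and Scd2 passed the threshold, while Acly, Me1, Fasn and Srebf1 lay above 0 short of it and Acss2 and the elongase genes below 0. Acly, which splits citrate into acetyl-CoA in the cytosol, stood at 32.2 and 43.4 CPM, with a log2 ratio of 0.43 (0.34 to 0.53). Me1, the malic enzyme that yields NADPH, stood at 12.6 and 17.7 CPM, 0.50 (0.35 to 0.65). Fasn, fatty acid synthase, stood at 36.4 and 48.9 CPM, 0.43 (0.34 to 0.51). Srebf1 stood beside them at 32.7 and 43.5 CPM, 0.41 (0.32 to 0.51), while Srebf2 lay near 0. Acaca, the carboxylase that makes malonyl-CoA, stood below the minimum at 8.54 and 9.58 CPM. Acss2, which makes acetyl-CoA from acetate, also stood below it, at 8.26 and 4.90 CPM, with a log2 ratio of -0.75 (-1.0 to -0.51), opposite to Acly.

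The desaturases, which put the first double bond into stearate and palmitate, were the 2 genes of the arm past the threshold. Scd1 (19:44394455 to 44407879, minus strand) stood at 9.39 CPM in the control and 16.1 in the knockout library, 1.71-fold higher, with a log2 ratio of 0.77 (0.61 to 0.94). Scd2 (19:44293674 to 44306864, plus strand) stood at 77.5 and 127 CPM, 1.64-fold higher, 0.71 (0.65 to 0.77). The family lies side by side on chromosome 19 and its members resemble each other in sequence, so reads could be assigned to the wrong copy. Scd3 held 0.437 and 0.455 CPM, and Scd4 had 5 and 4 UMIs in all. Positions are from GENCODE release M21 on GRCm38 (mm10).

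Over all cells the elongases lay below 0. Elovl1, which lengthens long saturated chains, stood at 119 and 79.4 CPM, with a log2 ratio of -0.58 (-0.65 to -0.52), just short of the threshold. Its annotated gene overlaps Cdc20 on the opposite strand, a cell cycle gene that stood at 53.1 and 32.8 CPM, so the caution on strand given for Fdft1 applies here too. It applies to other members as well, among them Srebf1 (overlapping Rai1), Cyp51 (Akap9), Acss2 (Ggt7 and Gss) and Lss. Tm7sf2 overlaps Vps51 on its own strand. The levels of these overlapping genes were not compared. Elovl6, which acts on palmitate, stood at 13.1 and 10.8 CPM, -0.28 (-0.45 to -0.11). Within the cell clusters described below Elovl6 went the other way in clusters 2, 3 and 7, at 0.92, 0.50 and 0.92 with intervals above 0. In cluster 2 it stood under the minimum, at 4.84 and 9.18 CPM. Without shared barcodes the intervals in clusters 2 and 3 reached just below 0, with lower ends of -0.005 and -0.014. Elovl5, which acts on polyunsaturated chains, stood at 27.4 and 25.5 CPM, -0.10 (-0.22 to 0.01).

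**Figure D2:**
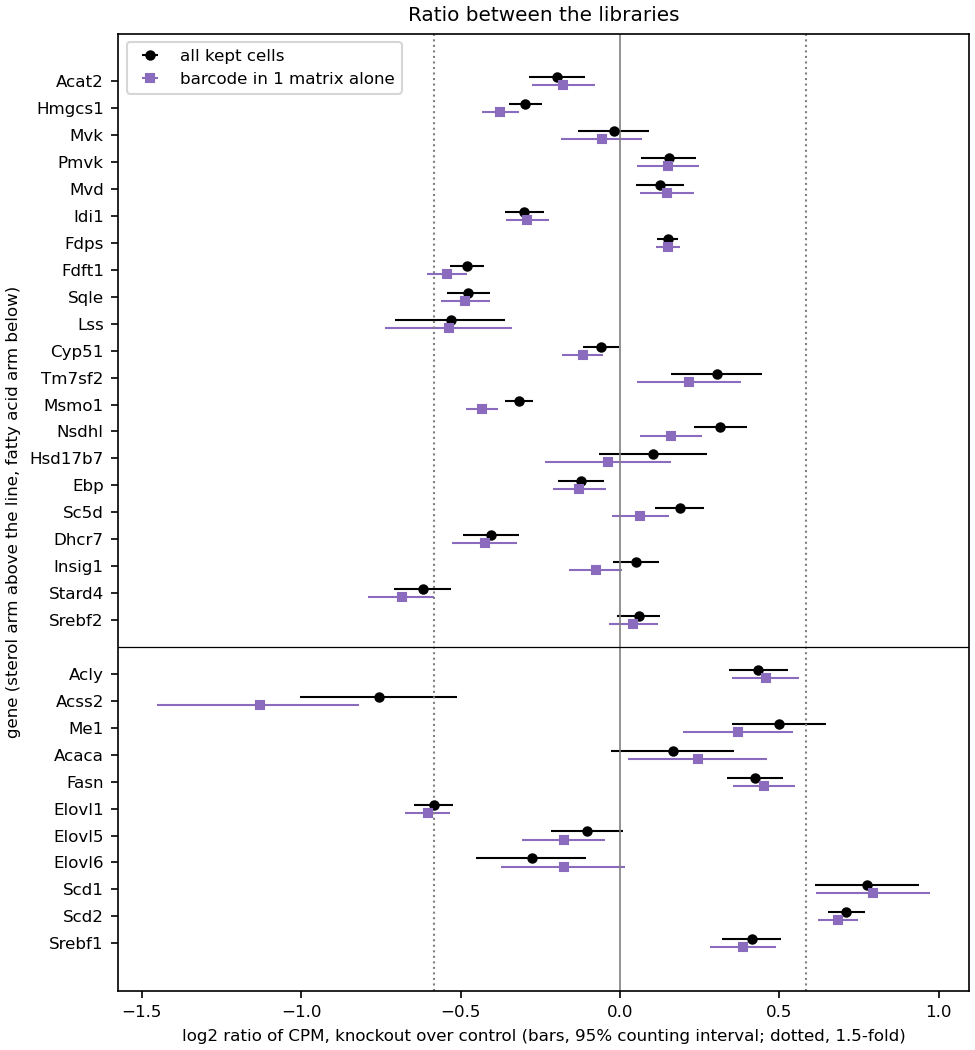
Log2 ratio of CPM, knockout over control, for each gene in all kept cells (black circles) and in cells whose barcode occurs in 1 matrix alone (violet squares), with 95% counting intervals and dotted lines at 1.5-fold. Scd1 and Scd2 lie beyond the right line under both choices of cells, Stard4 beyond the left one, and Elovl1 on it. Acss2, under 10 CPM in both libraries and not counted, also lies beyond the left line, at -0.75 and -1.13.

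Summed over its genes, the sterol arm took 1696 CPM in the control and 1553 in the knockout library, a log2 ratio of -0.13, and the fatty acid arm 377 and 427 CPM, 0.18 (0.15 to 0.21). Elovl1 alone held 31.6% and 18.6% of the UMIs of the fatty acid arm, and without it the log2 ratio of the sum was 0.43. Scd2 acted on this sum the other way. It stood at 77.5 and 127 CPM, a difference nearly as large as that of the whole fatty acid sum. Without Scd2 the other genes of the arm, some higher and some lower, summed to nearly the same level in both libraries. Fdps held 15.7% and 19.0% of the UMIs of the sterol arm, and without it the log2 ratio of the sterol sum was -0.19. In cells thinned to 5000 UMIs each, which left out 142 control and 94 knockout cells, the median cell held 7 sterol arm UMIs in both libraries and 2 fatty acid arm UMIs in both. The middle 80% of cells ran from 2.6 to 17 sterol arm UMIs in the control and from 2 to 15 in the knockout library, so the spread among cells was wide beside the difference of the means (8.82 and 7.90). For the fatty acid arm the means were 1.89 and 2.19.

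Cells were clustered together with the 32 genes and the other lipid genes left out, which gave 14 clusters. Most cells of many clusters came from 1 library, so the libraries differ in which states they hold as well as in levels. The cycling-like cluster 0 (Nusap1, Ube2c, Hmmr, Ccnb1) held 474 control and 134 knockout cells, and the S phase-like cluster 6 (Ung, E2f1) 266 and 12. The 15 cycling markers summed to 753 and 486 CPM over all cells, and the 16 S phase markers to 873 and 442 CPM. Other large clusters stayed unnamed and are given by leading genes: 1 (Golga7b, Dnah7b) with 592 and 10 cells, 2 (Prss56, Pnliprp1) with 123 and 408, 3 (Slc16a3, Gpnmb) with 303 and 208, 4 (Inhba, Sprr1a) with 46 and 384, 5 (Defa30, Reg4) with 297 and 8, 7 (Hamp, Cxcl10) with 123 and 115, 8 (Aqp1, Cldn15) with 198 and 18, and 10 (Thbs2, Igf1) with 40 and 67. Cluster 9 (145 and 63 cells, led by Gm26917) had a median of 3622 and 3835 UMIs per cell. When control cells were weighted to the cluster shares of the knockout library, the log2 ratio of the summed sterol arm was -0.07 and that of the fatty acid arm 0.25. The weighted values given here, sign changes included, rest in part on few control cells. Cluster 4 takes the weight of 384 knockout cells but holds only 46 control cells. Cluster 10 (40 control and 67 knockout cells) and cluster 12 (4 and 28) are thin in the control as well. Under this weighting Scd2 stayed at 0.63, Srebf1 at 0.47 and Fasn at 0.33. Scd1 came to 0.36, Me1 to 0.10, Elovl1 to -0.17 and Stard4 to -0.21, Fdft1 to -0.22, Sqle to -0.31 and Acly to 0.25, nearer to 0 than without it. The sign changed for 8 of the 32 genes: Nsdhl turned to -0.15, Tm7sf2 to -0.11, Hsd17b7 to -0.22, Elovl6 to 0.12, Cyp51 to 0.05, Mvk and Ebp to 0.03, and Srebf2 to -0.003.

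**Figure D3:**
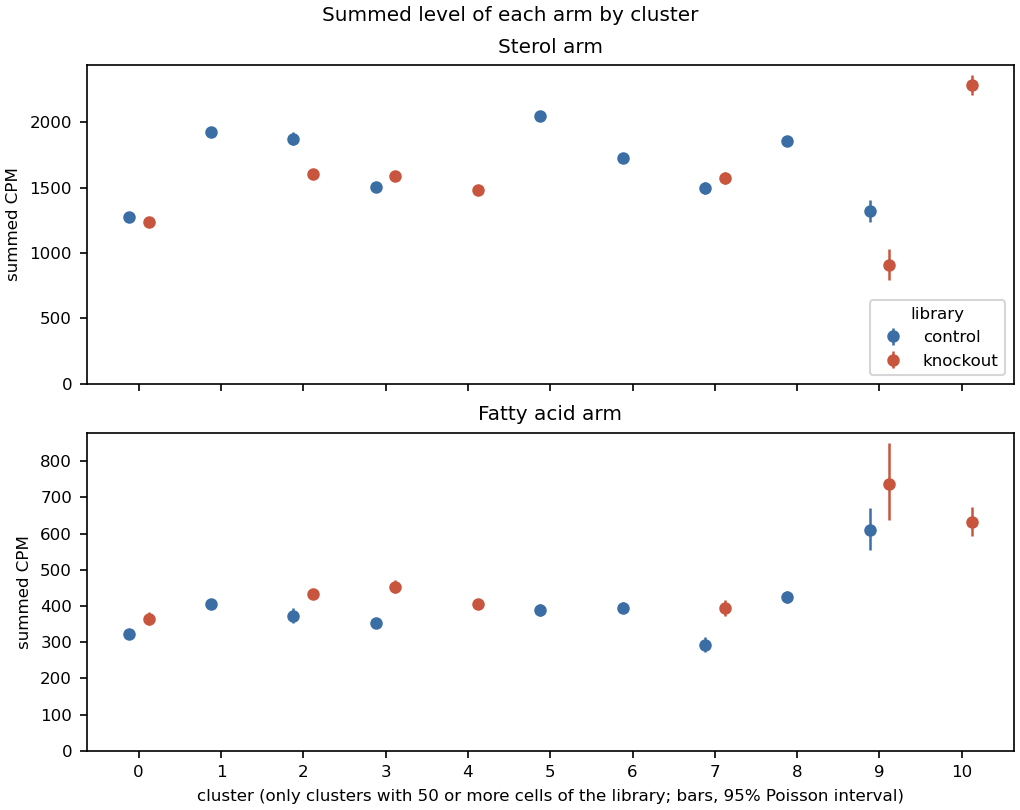
Summed CPM of each arm by cluster, control in blue and knockout in red, with 95% Poisson intervals; a library with under 50 cells in a cluster has no point. The cycling-like cluster 0 has the lowest control sum of the sterol arm, and in all 5 clusters with both points the fatty acid sum is higher in the knockout library. In clusters 0 and 9 that difference lies mainly in Scd2.

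The libraries were then compared cluster by cluster. Of the 5 clusters with 50 or more cells of both libraries (0, 2, 3, 7 and 9), the sum of the fatty acid arm was higher in the knockout library in 5 and the sum of the sterol arm in 2. The fatty acid sums ran from 324 to 365 CPM in cluster 0, from 373 to 433 in cluster 2, from 354 to 454 in cluster 3, from 292 to 394 in cluster 7 and from 610 to 738 in cluster 9, control first. In cluster 0 Scd2 alone (42.8 and 96.5 CPM) differed by more than the sum, and in cluster 9 (164 and 284 CPM) by nearly as much. It also held a large part of the difference in cluster 2 (98.8 and 135 CPM) and cluster 3 (87.6 and 144 CPM). Of the measured fatty acid arm genes, 4 of 8 lay above 0 in cluster 0 and 5 of 10 in cluster 9. In clusters 2, 3 and 7 these were 6 of 7, 8 of 9 and 9 of 9. The sterol sums stood at 1274 and 1238 CPM in cluster 0, 1873 and 1604 in cluster 2, 1501 and 1590 in cluster 3, 1499 and 1571 in cluster 7, and 1321 and 907 in cluster 9. In cluster 3, 5 of 9 measured fatty acid arm genes and 0 of 21 sterol arm genes were higher there, where 5.69% of its measured genes were, and none of either was lower, where 5.28% were. In cluster 7, 4 of 9 fatty acid arm genes and 0 of 20 sterol arm genes were higher (8.52% of measured genes) and none lower (5.73%). In cluster 2, 0 of 7 measured fatty acid arm genes and 0 of 21 sterol arm genes passed the threshold in either direction. There 6.76% of measured genes were higher and 2.21% lower. Elovl6 and Me1, at 0.92 and 0.61, were under 10 CPM in both libraries there and not counted. Of the 21 sterol arm genes in cluster 2, 18 lay below 0, with a median of -0.32. In cluster 0, with 20 sterol arm and 8 fatty acid arm genes measured, 2 genes of each arm were higher (7.44%) and 1 of each lower (15.1%). The shallow cluster 9 had 11 of 21 sterol arm genes and 4 of 10 fatty acid arm genes lower (28%), and 1 and 3 higher (20.8%), many of them on few UMIs.

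Of the fatty acid arm, 5 genes lay above 0 in all 5 clusters. Scd2 stood at 42.8 and 96.5 CPM in cluster 0, 98.8 and 135 in cluster 2, 87.6 and 144 in cluster 3, 71.9 and 106 in cluster 7, and 164 and 284 in cluster 9, with an interval above 0 in each of the 5. The knockout library was the higher one in every pair. Fasn was likewise above 0 in all 5, with log2 ratios between 0.22 and 0.76 and an interval above 0 in 4. Acly (0.12 to 0.73), Scd1 (0.18 to 1.12) and Srebf1 (0.30 to 0.62) were above 0 in all 5, with intervals above 0 in 3. For Scd1 1 of these is cluster 0, where it was under 10 CPM in both libraries (4.58 and 7.20). Without shared barcodes its interval there ran from -0.40 to 1.23. In cluster 9 Scd1 rested on 9 and 7 UMIs. Scd1 in cluster 2, where both libraries were high, stood at 20.7 and 23.3 CPM and hardly differed. Elovl1 had a log2 ratio of -0.76 in cluster 0, -0.42 in cluster 3 and -1.0 in cluster 9, but 0.02 in both clusters 2 and 7. Acss2 lay below 0 in all 5, with an interval below 0 in 2 of them. The other genes of the arm lay on both sides: Me1 was at -0.48 in cluster 0 and 0.59 in cluster 3, each interval clear of 0, Acaca and Elovl6 lay above 0 in 3 clusters, and Elovl5 in 2.

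The sterol arm held genes of either kind. Stard4, Msmo1 and Fdft1 lay below 0 in all 5 clusters, with an interval below 0 in 4, 4 and 3 of them. Stard4 stood at 48.7 and 33.0 CPM in cluster 0, 41.3 and 32.7 in cluster 2, 39.1 and 35.4 in cluster 3 and 66.7 and 51.8 in cluster 7. Without shared barcodes Msmo1 was at 0.01 and Fdft1 at 0.02 in cluster 7, and Stard4 kept its sign in all 5. Fdps, by contrast, was higher in the knockout library in clusters 0 (190 and 253 CPM), 3 (263 and 369) and 7 (197 and 286) and lower in cluster 2 (320 and 290) and cluster 9 (153 and 115). Nsdhl and Tm7sf2 had ratios of 0.66 and 0.88 in cluster 0 and of -0.32 and -0.54 in cluster 2. In cluster 0 without shared barcodes these were 0.42 and 0.61, the latter with Tm7sf2 under 10 CPM in both libraries.

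**Figure D4:**
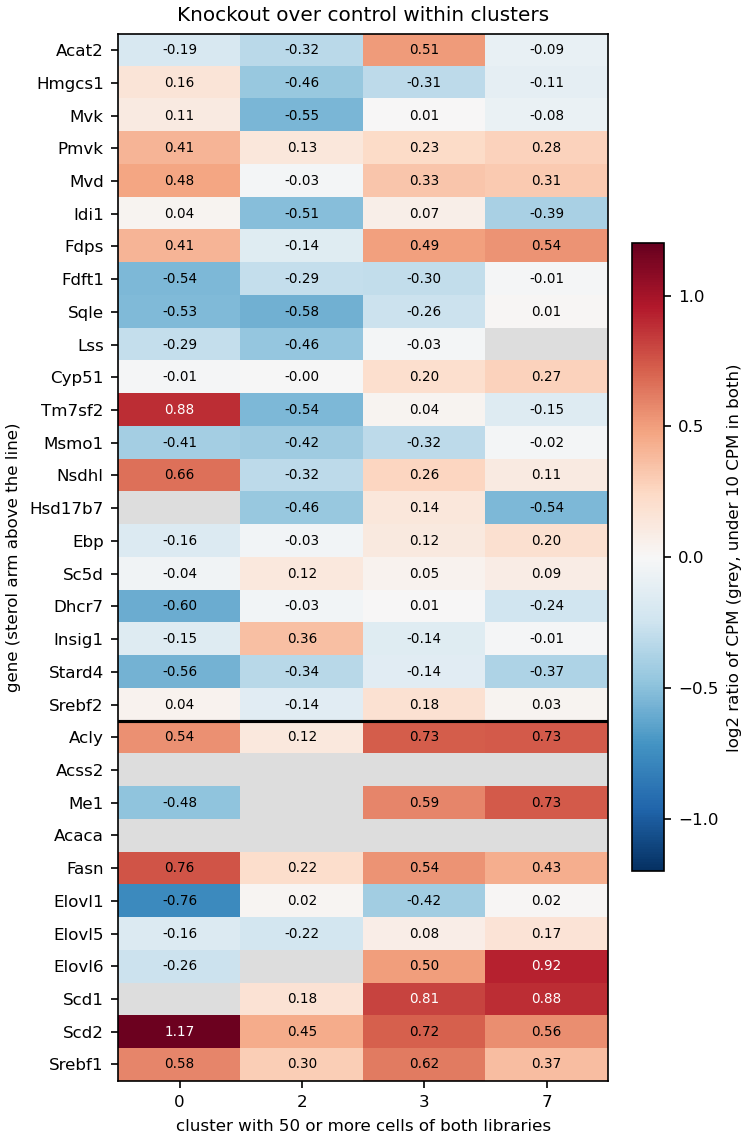
Log2 ratio of CPM, knockout over control, of each gene within clusters 0, 2, 3 and 7, printed in each cell of the map; red is higher in the knockout library, blue lower, and grey under 10 CPM in both. Rows of Acly, Fasn, Scd2 and Srebf1 are red throughout, while the sterol arm above the line is mixed and mostly blue in cluster 2.

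Levels were also compared between cell states of the same library. In the cycling-like cluster the sterol arm stood lower than in the other cells of the same library, in both libraries. The median log2 ratio of cycling-like over other cells was -0.48 in the control and -0.38 in the knockout library, with 20 of 21 genes below 0 in each, beside medians of 0.04 and -0.03 over all measured genes. By 1.5-fold or more, 8 of 21 sterol arm genes were lower and 0 higher in the control, where 5.79% of measured genes were lower and 10.7% higher, and 5 were lower and 0 higher in the knockout library, where 11.1% and 10.6% were. For 15 of 21 sterol arm genes the interval lay below 0 in both libraries, where it did for 19.5% of the 7534 genes measured in both, and for none above it, where it did for 22.5%. Mvd stood at 28.4 CPM in cycling-like and 64.5 in other control cells, and at 39.5 and 64.9 CPM in the knockout library. Hmgcs1 stood at 78.2 against 164 CPM in the control and 87.3 against 122.5 in the knockout library. Nsdhl stood at 21.8 against 47.3 CPM and 34.5 against 54.5. Ebp was the exception, at 70.7 against 66.8 CPM and 63.3 against 61.9, and Srebf2 differed little, at 68.9 against 74.1 CPM and 70.9 against 76.7. Mvd, Hmgcs1 and Nsdhl lay nearer to 0 in the knockout library, while Sc5d (-0.25 in the control and -0.48 in the knockout library), Insig1 (-0.36 and -0.55) and Dhcr7 (-0.50 and -0.67) lay farther from it. These differences between libraries had no test. Without shared barcodes the medians of the arm were -0.41 and -0.36. The cycling-like cells were also deeper, at a median of 30537 UMIs in the control and 34497 in the knockout library, and the part of depth in this pattern was not tested.

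The fatty acid arm lay closer to 0 in the cycling-like state. Its medians were -0.10 in the control and -0.18 in the knockout library, with 6 and 7 of 9 measured genes below 0. By 1.5-fold or more 2 of 9 were lower and 0 higher in each library. They were Scd1 and Scd2 in the control, and Scd1 and Me1 in the knockout library. Of all measured genes 5.79% were lower and 10.7% higher in the control, and 11.1% and 10.6% in the knockout library. For 3 of all 11 genes (Scd1, Scd2 and Acss2, the last under 10 CPM) the interval lay below 0 in both libraries, against 19.5%. For 0 it lay above, against 22.5%. Scd1 was low in both, at 4.58 against 10.7 CPM in the control and 7.20 against 17.3 in the knockout library. Scd2 stood at 42.8 against 87.1 CPM in the control and 96.5 against 131 in the knockout library. Elovl1, which overlaps the cycling gene Cdc20, stood at 121 against 119 CPM and 71.1 against 80.5. Me1 went opposite ways, at 16.2 against 11.6 CPM in the control and 11.6 against 18.6 in the knockout library.

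**Figure D5:**
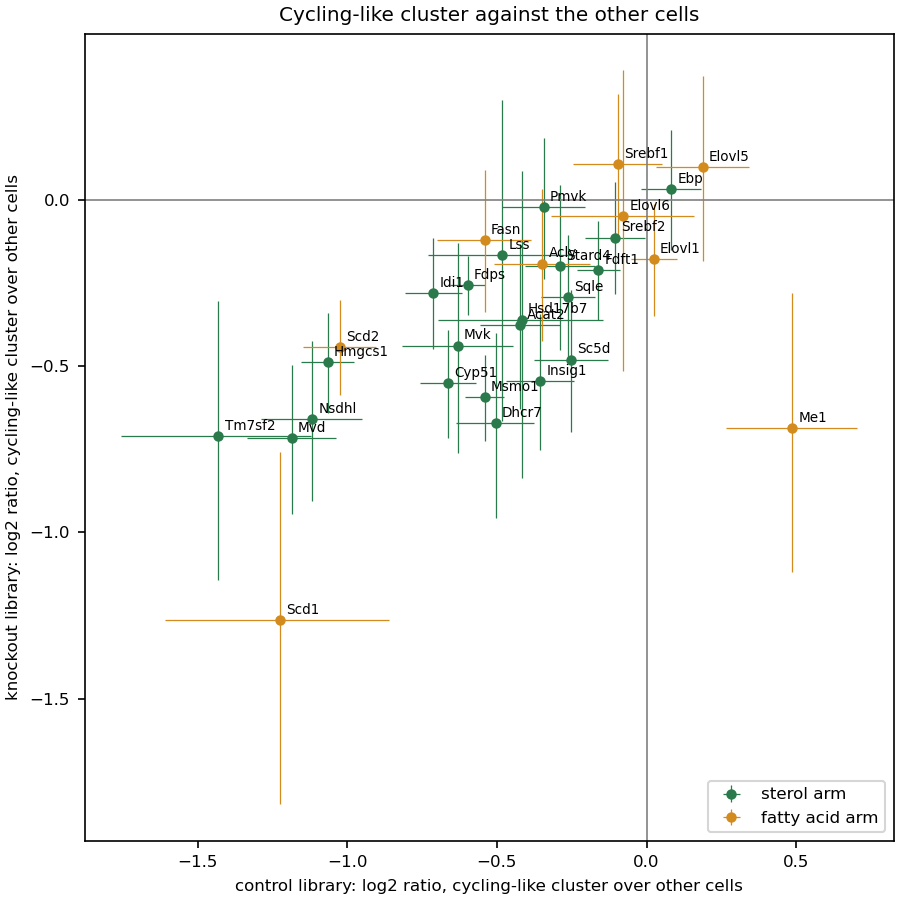
Log2 ratio of CPM in the cycling-like cluster over all other cells, in the control (horizontal axis) and in the knockout library (vertical axis), for the 30 measured genes, with 95% counting intervals. Sterol arm genes (green) gather at the lower left except Ebp, and fatty acid arm genes (orange) lie on both sides of 0, with Scd1 at -1.26 in the knockout library and Me1 at 0.49 in the control.

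Across all clusters with 50 or more cells of a library and leaving out the shallow cluster 9, the cycling-like cluster held the lowest level of 14 of 21 sterol arm genes in the control and 13 in the knockout library. The highest levels in the control were spread over clusters 1, 2, 5, 6 and 8. In the knockout library cluster 10 (67 cells, 32 of them with a shared barcode) held the highest level of 16 of 21 sterol arm and 9 of 11 fatty acid arm genes, with arm sums of 2281 and 632 CPM. Too few control cells (40) lay in cluster 10 for a value there. The level of Scd1 varied 4.77-fold among clusters of the control and 16.9-fold among those of the knockout library. It ran from 4.58 CPM in cluster 0 to 21.9 in cluster 5 in the control, and from 4.78 in cluster 4 to 80.6 in cluster 10 in the knockout library. Leaving cluster 10 out of both libraries, Scd1 stood at 8.69 and 13.3 CPM, with a log2 ratio of 0.61 (0.43 to 0.79). Tm7sf2 ran from 6.27 to 36.2 CPM in the control and Nsdhl from 21.8 to 81.1, both from cluster 0 to cluster 2, and in the knockout library Nsdhl ran from 34.5 in cluster 0 to 166 in cluster 10. Srebf2 and Ebp were the most even, with highest over lowest of 1.28-fold and 1.32-fold in the control and 1.09-fold and 1.31-fold in the knockout library.

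Other genes of the pathways were read from lists outside the 32. Of 18 measured genes of sterol regulation and handling (22 listed), 0 were higher and 2 lower, with a median of -0.17, where 8.06% of all measured genes were higher and 10.7% lower. Mbtps1, the protease that makes the first cut in SREBPs, stood at 57.0 and 34.7 CPM, with a log2 ratio of -0.72 (-0.81 to -0.63), and Acat1, a mitochondrial thiolase, at 51.7 and 33.2 CPM, -0.64. Insig2, the partner of Insig1 in holding back SREBPs, had a ratio of 0.36 at 27.9 and 35.8 CPM, and Ube2g2, a ubiquitin conjugating enzyme, 0.20. Of 14 measured genes of elongation, activation and citrate supply (21 listed), 2 were higher and 1 lower, with a median of 0.15, beside the same shares of all measured genes. Acsl3, which activates fatty acids to acyl-CoA, stood at 65.4 and 152 CPM, 1.22 (1.16 to 1.27), and Hacd2, the dehydratase of the elongation cycle, at 248 and 430 CPM, 0.79 (0.76 to 0.82). Acsl5, another acyl-CoA synthetase, lay the other way at 95.8 and 63.5 CPM, -0.59, and Mid1ip1, an activator of acetyl-CoA carboxylase, at -0.25. Acsl5 was 1.48-fold lower without shared barcodes, short of the threshold.

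Genes that burn or store fatty acids were counted in the same way, and their counts are to be set beside the same shares of 8.06% and 10.7%. Of 17 measured oxidation genes (19 listed), 0 were higher and 1 lower, with a median of -0.13 and 15 of 17 below 0. Acaa2, a mitochondrial thiolase, stood at 61.4 and 39.5 CPM, -0.64, and Hadh at 114 and 85.6 CPM, -0.41. Acadl, a mitochondrial acyl-CoA dehydrogenase, lay the other way with a ratio of 0.30. Of 11 measured lipid droplet and triglyceride genes (16 listed), 1 was higher and 1 lower, with a median of 0.18 and 7 of 11 above 0. Hilpda, a droplet protein that inhibits the lipase ATGL, stood at 29.95 and 70.9 CPM, with a log2 ratio of 1.24 (1.16 to 1.33). Fabp2, the intestinal fatty acid binding protein, stood at 10.1 and 3.24 CPM, -1.65 (-1.94 to -1.37), and it is among the leading genes of cluster 8, which held 198 control and 18 knockout cells. Agpat2, an acyltransferase of phosphatidate synthesis, had a ratio of 0.45, and Fitm2, which acts in droplet formation, -0.49 (-0.63, past the threshold, without shared barcodes).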

How the data were processed

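Droplet single-cell libraries of 2 groups were analysed. The authors deposited raw UMI counts for each gene and barcode, as whole numbers without normalization. They came from Cell Ranger 3.1.0 per the file headers and from mm10 per the submitters' processing notes. The annotation release and strand setting are not given in the sources used here. Barcodes under 1000 genes, under 2000 UMIs or over 20% mitochondrial UMIs were left out, which removed 931 of 3618 control and 579 of 2078 knockout barcodes. Scrublet (scanpy 1.11.5) marked only 1 and 4 doublets with its automatic threshold, so the highest scores were removed instead, 0.8% per 1000 cells (58 and 18 cells).

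Counts were summed over kept cells and scaled to CPM. Ratios carry no pseudocount, and 95% intervals are exact (Poisson for levels, conditional binomial for ratios), computed with scipy 1.17.1 and tested on simulated data. For clusters, 2000 variable genes without the lipid genes, 30 components, 15 neighbours and Leiden clustering at resolution 0.8 (leidenalg 0.10.2) were used without integration. A cluster took a name when 3 or more markers of a class reached 10 CPM at 2-fold the level of the other cells and 2 or more stood among its 10 leading genes. The members are picked by symbol with no threshold on their values, but they, the gene lists, markers and thresholds were chosen with earlier results of these data known. All 32 genes are given. Of each further list, the 2 measured genes farthest from 0 in each direction are named, and of each cluster up to 5 leading genes, apart from some not reported here. Gene positions and overlaps came from GENCODE M21, in which 30934 of 31053 identifiers were found, and promoters from RefSeq. Alternatives covered cell filters, doublets, minimum CPM, scaling (edgeR 4.0.16 for TMM), shared barcodes, cluster weighting and clustering genes.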

Additional observations from a re-analysis of the deposited data

How the results depend on the processing

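No paired analysis was possible because each group has 1 matrix and its records are not separate columns, and no replicate could be left out for the same reason. TMM scaling moved all log2 ratios by -0.03. The sterol arm median of -0.06 turned to 0.0026 when the median of all measured genes was set to 0. The 1 lower sterol arm gene, Stard4, fell short of the threshold (0 lower) with that scaling, with control cells weighted to knockout cluster shares, with a 2-fold threshold and with equal weight for the clusters of both libraries, and against genes of similar transcript length 2 sterol arm genes (Stard4 and Lss) were lower. The count of lower fatty acid arm genes went from 0 to 1 without a cell filter, without doublet removal, without a minimum CPM, with TMM, in cells of a barcode in 1 matrix alone, without colonocyte-like cells and with the mean over cells. This gene was Elovl1, except without a minimum CPM, where it was Acss2. At a minimum of 50 CPM the fatty acid arm median was 0.063 and its difference from the sterol arm 0.19, with 1 gene higher, as Elovl1 and Scd2 alone reach that level. With weighted control cells, which are few in some clusters, its median was 0.25 with 1 gene higher, and with equal cluster weights 0.31. At 2-fold, 0 fatty acid arm genes were higher. The stricter cell filter and leaving out cluster 9 or cluster 10 kept each arm's median and counts within these limits of the values given, and clustering with the lipid genes kept the medians of the cycling-like comparison. Alternatives relative to transcript length, without clusters 9 or 10 and with equal cluster weights were chosen after seeing the data. Of 13 settings, each that gave a value kept the sign of 18 of the 32 genes. Longer transcripts had higher ratios across 7909 genes (Spearman 0.22, genes are not independent), and the median longest transcript was 3027 bases in the sterol and 4426 in the fatty acid arm. Against genes of similar length the arm medians were -0.03 and 0.44 and their difference 0.47, while Fasn came to 0.23.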
